A study of Mus musculus with 8 samples.

Results

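The genes described here were 9 transcription factor genes of the hair and epidermal lineages: Msx1, Msx2, Dlx2, Dlx3, Dlx5, Hoxc13, Foxn1, Foxq1 and Satb1. They were taken by symbol, as all rows of the expression tables that carry one of these 9 names. The table of hair follicle stem cells (HFSCs) held all 9 among 23861 genes, and the table of epidermal stem cells (EpdSCs) held 7 among 16231 genes. Msx1 and Dlx2 had no row in the EpdSC table and were not analysed there. Msx1, Msx2, Dlx2, Dlx3, Dlx5 and Hoxc13 are homeobox genes of the Msx, Dlx and Hox families. Foxn1 and Foxq1 encode forkhead factors, and Satb1 encodes a chromatin organiser that also carries a homeodomain.

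Bulk RNA-seq was made from sorted cells of mouse dorsal skin in telogen, the resting phase of the hair cycle, without treatment. HFSCs were sorted as CD34+CD49f+Sca-1- and EpdSCs as CD34-CD49f+Sca-1+. Each cell type had 2 wild-type (WT) libraries and 2 libraries labelled Msx2-KO. The WT HFSC mice were 2 months old, while the Msx2-KO HFSC mice and both EpdSC groups were 6 months old. Age and genotype therefore cannot be told apart in HFSCs. Library names also ran in separate series for WT and Msx2-KO in each cell type, and what the series mean is not given. A difference in handling cannot be told apart from genotype in either cell type. The names of the WT EpdSC and Msx2-KO HFSC libraries followed on from each other, so that series crosses genotype between the cell types. Opposite directions in the cell types cannot be told apart from this layout of names. The Msx2-KO allele carries a neomycin cassette inserted ahead of exon 2 in every cell of the animal, and the controls were C57BL/6J mice matched by hair cycle stage. The labels do not say whether the libraries of a group came from separate animals, so the p-values measure only the spread between these libraries, which may be technical.

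Msx and Dlx factors are homeodomain proteins that act downstream of bone morphogenetic protein (BMP) signals in skin appendages. In the growing follicle, Msx2, Dlx3, Hoxc13 and Foxn1 are known for their part in building the hair shaft and its keratins. Foxq1 is known for its role in the hair medulla, Foxn1 also acts in differentiating epidermal keratinocytes, and Satb1 organises the chromatin of epidermal genes. In telogen the follicle builds no shaft.

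The homeobox stretches of Msx2, the targeted gene, and of Dlx2 and Dlx3, close relatives with different counts in these libraries, are shown. Each stretch is 180 bases of the GENCODE M21 coding sequence on GRCm38, and the 18 bases in capitals encode the conserved core of the DNA recognition helix.
Msx2: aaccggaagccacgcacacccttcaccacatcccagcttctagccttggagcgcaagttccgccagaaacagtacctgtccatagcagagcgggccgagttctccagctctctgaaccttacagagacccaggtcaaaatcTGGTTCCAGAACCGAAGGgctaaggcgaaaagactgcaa
Dlx2: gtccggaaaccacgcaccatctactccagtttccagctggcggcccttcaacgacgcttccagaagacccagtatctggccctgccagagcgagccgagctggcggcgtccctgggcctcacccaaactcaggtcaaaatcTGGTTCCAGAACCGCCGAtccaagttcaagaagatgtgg
Dlx3: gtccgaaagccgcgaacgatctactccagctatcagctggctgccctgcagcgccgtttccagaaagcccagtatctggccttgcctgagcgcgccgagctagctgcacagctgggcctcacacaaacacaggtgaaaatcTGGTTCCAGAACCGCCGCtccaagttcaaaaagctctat

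The Dlx2 and Dlx3 stretches were identical at 147 of 180 bases, with a longest shared run of 23 bases. The homeobox of Msx2 lies in exon 2, at chr13:53468370-53468549 on the minus strand. The homeoboxes of Dlx2 and Dlx3 are each split over exons 2 and 3. The counts are given per gene and do not separate exons.

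In both cell types Msx2 RNA was counted in every library labelled Msx2-KO. In HFSCs Msx2 had 53 and 7 estimated counts in WT, against 40 and 18 in the labelled libraries. After scaling by the trimmed mean of M values (TMM) these became 43.3 and 13.8 against 26.7 and 23.4 normalised counts, so both labelled libraries lay between the WT libraries. The log2 fold change, Msx2-KO minus WT, was -0.20 with a standard error (SE) of 1.23 (adjusted p = 0.975, edgeR). In EpdSCs Msx2 was listed at 58.5 and 85.4 in WT, against 150.3 and 22.2 in the labelled libraries, in the deposited normalised unit. The labelled EpdSC libraries lay on either side of the WT libraries, with a log2 fold change of -0.27 and an SE of 1.10 (adjusted p = 0.865, limma). The counts of the targeted gene thus did not separate the genotypes, and the groups are called by their labels.

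HFSC depth ranged from 3132974 to 11016659 estimated counts per library and EpdSC depth from 15213666 to 21092697. In HFSCs, mitochondrial ribosomal RNA took 8.94% and 36.3% of the WT counts and 49.4% and 53.2% of the counts in the labelled libraries. Library 1 labelled Msx2-KO stood apart in both cell types, with 11414 genes detected against 14268 to 22489 in the other HFSC libraries and 12728 against 15170 to 15938 in the other EpdSC libraries. A defining HFSC marker list was detected in full in every HFSC library (8 of 8 genes). In EpdSCs 7 of these 8 genes had a row too. The sum of the HFSC list was lower than that of the basal epidermal list in every EpdSC library and in every HFSC library. These sums thus did not tell the sorts apart. Of the genes of the sort, Cd34 had a row only in HFSCs and Ly6a, the gene of Sca-1, only in EpdSCs. Itga6, the gene of CD49f, had a row in both. Markers of the suprabasal epidermis were present in every library.

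**Figure D1:**
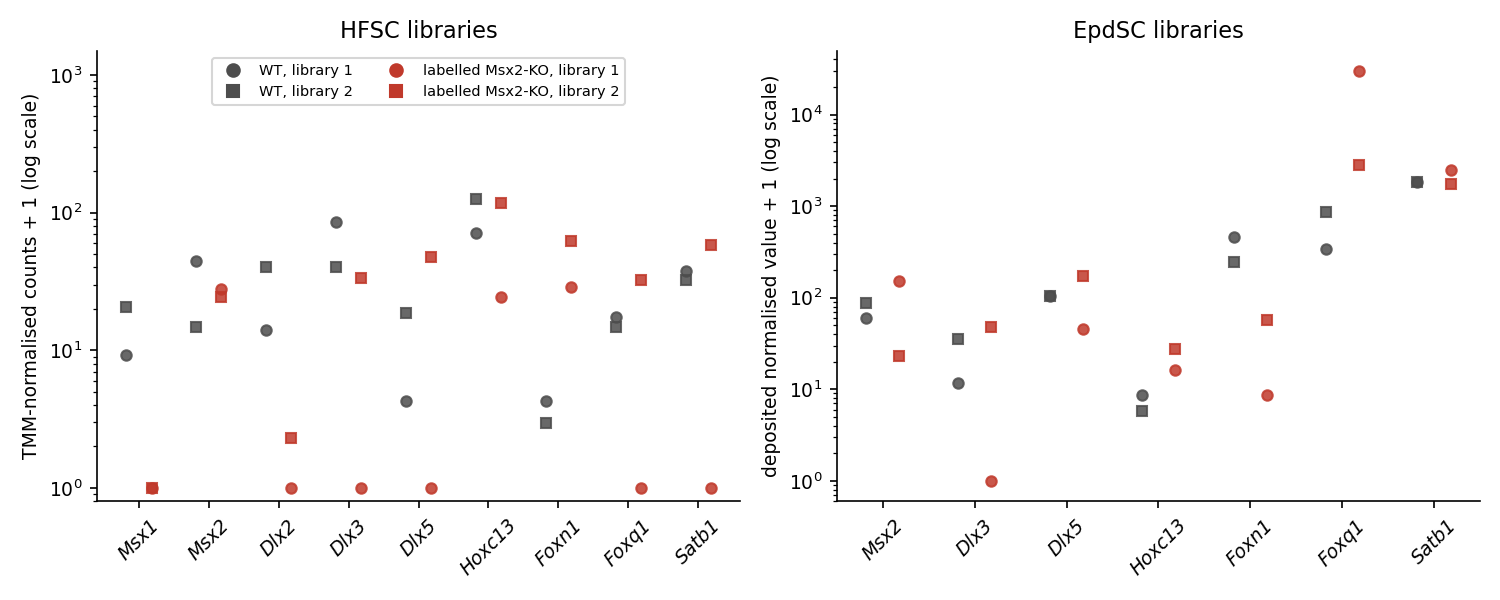
Level of each member in each library on a log scale, as TMM-normalised counts plus 1 for HFSCs (left) and deposited normalised values plus 1 for EpdSCs (right). Grey marks WT and red marks libraries labelled Msx2-KO, with circles for library 1 and squares for library 2. Foxn1 is higher in both labelled HFSC libraries and lower in both labelled EpdSC libraries than in WT.

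None of the 9 members was called between the genotypes in HFSCs, where a call needed an adjusted p under 0.05 and a fold over 2. The background was the same, at 0% of 14422 genes tested, and 724 genes were higher and 1757 lower at an unadjusted p under 0.05 with that fold. DESeq2 called 323 genes higher and 351 lower and limma-trend 158 and 1249, with 0 members among them. None of the 7 members tested in EpdSCs was called, against 9.35% of 16231 genes. At the unadjusted threshold, Foxn1 was higher and Msx1 and Dlx2 lower in HFSCs, where 5.02% and 12.2% of all genes passed in those directions. In EpdSCs Foxq1 was higher and Foxn1 lower, where 12.2% and 23.1% of all genes passed. The median log2 fold change was -0.27 over the members and -0.14 over all genes in HFSCs, and -0.23 and -0.64 in EpdSCs.

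The groups did not overlap for 4 of the 9 members in HFSCs. Both labelled libraries lay below both WT libraries for 3 members, Msx1, Dlx2 and Dlx3, against 33.5% of all genes. They lay above for 1 member, Foxn1, against 17.5% of all genes. In EpdSCs the labelled libraries lay above WT for Hoxc13 and Foxq1, against 27.8% of all genes, and below for Foxn1 alone, against 44.5%. These shares were near or under the background in each direction.

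**Figure D2:**
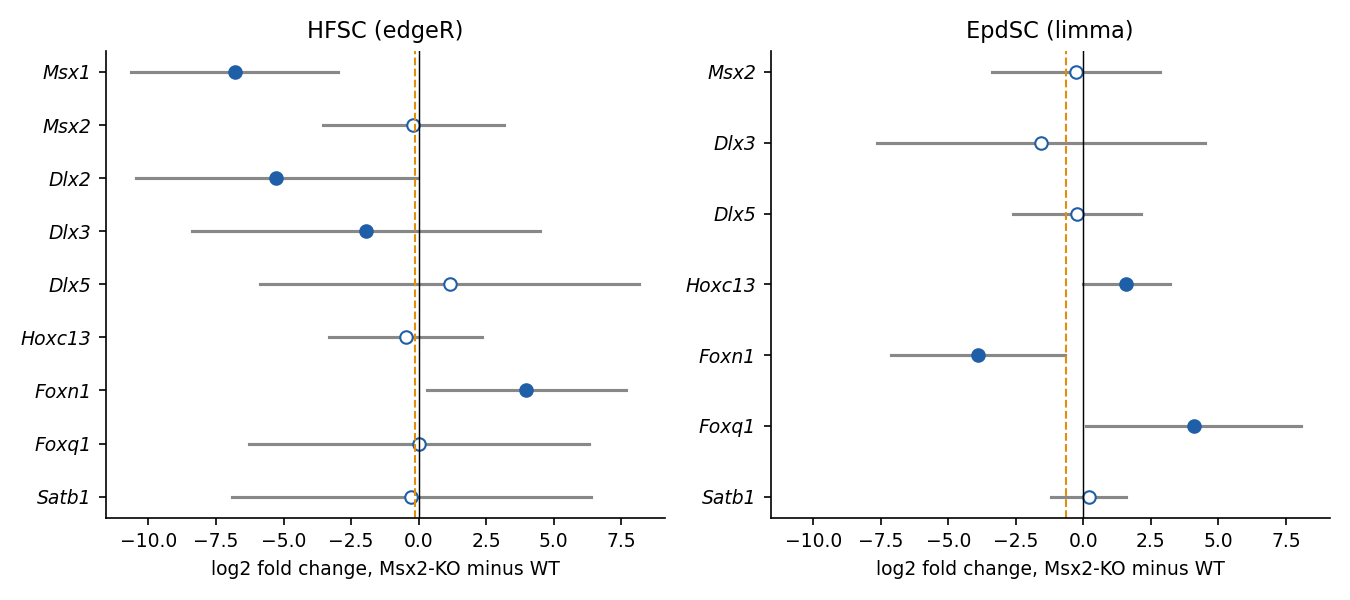
Log2 fold change of each member, Msx2-KO minus WT, with a 95% confidence interval, derived from the edgeR test in HFSCs (left) and from limma in EpdSCs (right). Filled points mark members whose groups do not overlap, open points those that overlap, and the dashed line is the median of all genes tested. No member was called in either cell type, and the intervals of Dlx3, Dlx5, Foxq1 and Satb1 in HFSCs each span more than 12 log2 units.

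Msx1 encodes the homeodomain factor most like Msx2 and lies at chr5:37820485-37824583. It had 10 estimated counts in each WT HFSC library and 0 in both labelled libraries. With the normalised counts at 8.17 and 19.8 in WT, Msx1 was at least 8.75-fold lower in the labelled libraries, taking a floor of 3 counts over the group. The edgeR adjusted p was 0.143. Library 2 labelled Msx2-KO had no count of it either, although 8 of the 9 members were counted there. Among 13705 genes whose WT mean lay in the members' range of 2.62 to 97.4 normalised counts, 36.6% were at 0 in both labelled libraries. The log2 fold change of Msx1 was -6.80, and -6.85 without library 2 labelled Msx2-KO. Over the alternatives that kept every library its adjusted p ran from 0.0543 (limma-trend) to 0.993 (edgeR with a replicate block).

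Dlx2, a distal-less homeobox gene at chr2:71543408-71546754, showed the same order of libraries. It had 16 and 20 estimated counts in WT HFSCs, and 0 and 1 in the labelled libraries. Over the groups WT was 47.3-fold higher, with an exact counting interval of 7.96 to 1917 that covers counting error only. The edgeR log2 fold change was -5.26 with an SE of 1.90 (adjusted p = 0.270). Without library 2 labelled Msx2-KO the log2 fold change was -7.76.

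Dlx3, a distal-less gene at chr11:95120119-95125296 that is active in the hair matrix, was lower in the labelled HFSC libraries chiefly through a single library. It had 104 and 20 counts in WT and 0 and 25 in the labelled libraries, or 84.95 and 39.6 against 0 and 32.5 normalised counts. The log2 fold change was -1.95 with an SE of 2.35 (adjusted p = 0.818, edgeR). It moved to -9.11 without library 2 labelled Msx2-KO and to -1.0 at its smallest when another library was left out. In EpdSCs Dlx3 was listed at 10.8 and 34.1 in WT and at 0 and 46.5 in the labelled libraries, and the groups overlapped. There its log2 fold change was -1.56 with an SE of 2.15 (adjusted p = 0.613, limma).

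Dlx5, at chr6:6877805-6882085, had 4 and 9 counts in WT HFSCs and 0 and 36 in the labelled libraries. The labelled libraries were the lowest and the highest, and the log2 fold change was 1.16 with an SE of 2.57 (adjusted p = 0.919, edgeR). The same split appeared in EpdSCs, where Dlx5 was listed at 104.0 and 102.4 in WT and at 44.6 and 171.9 in the labelled libraries. The EpdSC log2 fold change was -0.23 with an SE of 0.83 (adjusted p = 0.850, limma). Without library 2 labelled Msx2-KO it was -1.19, and without library 1 it was 0.73.

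In all, 6 of the 9 members were at 0 in library 1 labelled Msx2-KO of the HFSCs, namely Msx1, Dlx2, Dlx3, Dlx5, Foxq1 and Satb1. In that library 60.3% of the genes in the members' WT range were at 0, compared with 45.7% in library 2 labelled Msx2-KO and 0.635% and 6.27% in the WT libraries. The part of this gap in detection in the lower values of Msx1, Dlx2 and Dlx3 was not tested. Fewer cells that express a gene and less RNA per cell cannot be told apart in bulk samples.

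Foxn1 was the member whose groups separated in both cell types, in opposite directions. It encodes the forkhead factor mutated in the nude mouse and lies at chr11:78357577-78386558. In HFSCs it had 4 and 1 estimated counts in WT and 42 and 47 in the labelled libraries. These were 3.27 and 1.98 against 28.0 and 61.0 normalised counts, so each labelled library was above each WT library. The log2 fold change was 3.99 with an SE of 1.34 (adjusted p = 0.239, edgeR). It was 4.34 without labelled library 1 and 3.26 without labelled library 2. Without WT library 1 it was 4.39, and without WT library 2 it was 3.64.

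In EpdSCs Foxn1 was listed at 457.1 and 241.9 in WT and at 7.64 and 56.6 in the labelled libraries. Both labelled libraries were below both WT libraries, with estimated counts of 422 and 255 against 6 and 84. The log2 fold change was -3.90 with an SE of 1.14 (adjusted p = 0.109, limma). It was -5.27 without library 2 labelled Msx2-KO and -2.53 without library 1. The difference between the cell types was not tested, because the tables were deposited and normalised separately.

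As a list, markers of the suprabasal epidermis moved in the same directions as Foxn1, though not every gene of it did. The list holds 8 genes, among them Krt1 and Krt10, the keratins of differentiating keratinocytes, and Ivl, a cornified envelope precursor. In HFSCs their summed level was 1621 and 1768 normalised counts in WT and 5035 and 18439 in the labelled libraries. Of 7 tested genes 6 had a positive log2 fold change, and 5 lay above WT in both labelled libraries, against 17.5% of all genes. Their median was 4.48 and none was called by edgeR, while DESeq2 called 4 higher, limma-trend 2 and the edgeR fit with a replicate block 2. Krt1 was at 125.0 and 49.5 normalised counts in WT HFSCs and at 1498 and 5807 in the labelled libraries. Sbsn and Dmkn overlapped between the groups. Sbsn had a log2 fold change of -0.37, at 683.7 and 1038 in WT against 378.6 and 952.0.

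In EpdSCs the summed level of the same list was 279139 and 198524 in WT and 48515 and 73915 in the labelled libraries. All 8 genes had a negative log2 fold change, with a median of -2.11 against -0.64 for all genes. Of the 8, 5 lay below WT in both labelled libraries, against 44.5% of all genes. Called lower by limma were 2, Ivl and Sbsn. Neither was called with a pseudocount of 0.1 or without either WT library, and 1 of them with library totals or a replicate block. The median of the list was -2.47 without library 1 labelled Msx2-KO and -2.17 without library 2. Ivl was listed at 433.3 and 232.4 in WT and at 2.55 and 9.44 in the labelled libraries (adjusted p = 0.0368, limma). Sbsn, a suprabasal secreted protein gene, was listed at 8563 and 6441 in WT and at 747.5 and 647.5 in the labelled libraries (adjusted p = 0.0388, limma). Lor, the major cornified envelope protein, overlapped between the groups at 42.2 and 29.4 against 231.8 and 4.04. Krtdap overlapped too, with a log2 fold change of -0.12. The part of the suprabasal markers in the Foxn1 result was not tested.

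**Figure D3:**
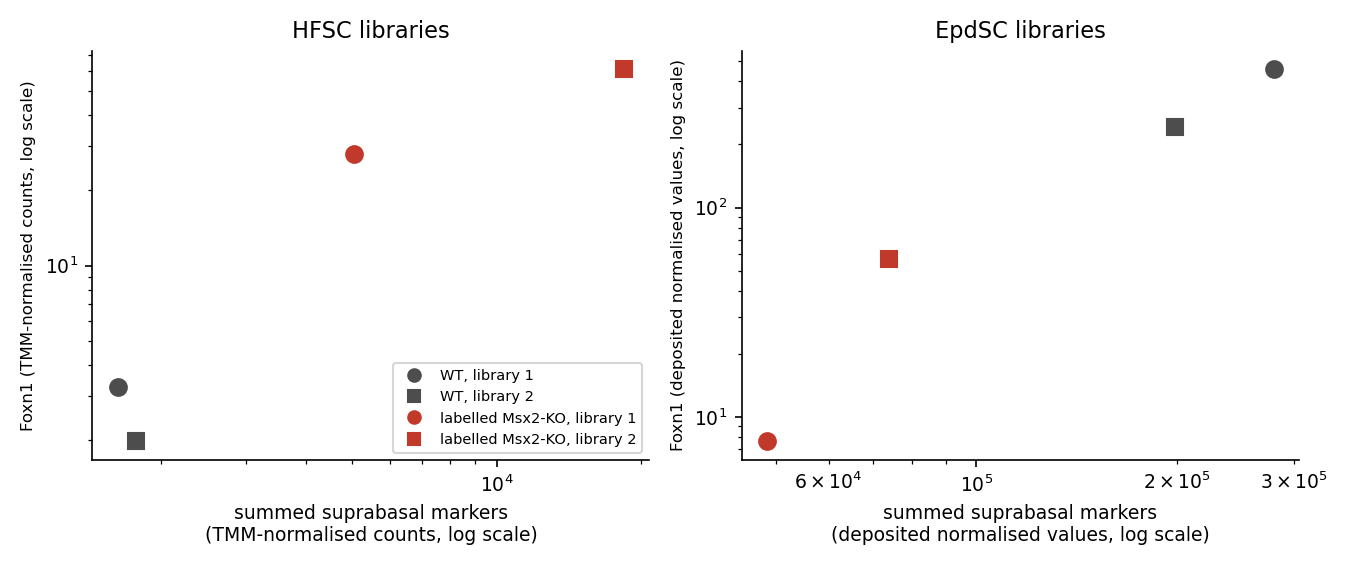
Level of Foxn1 against the summed level of 8 suprabasal epidermal markers in each library, both on log axes, in TMM-normalised counts for HFSCs (left) and deposited normalised values for EpdSCs (right). Grey marks WT and red marks libraries labelled Msx2-KO, and the 2 labelled libraries are on the high side of both axes in HFSCs and on the low side of both axes in EpdSCs.

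Hoxc13, the posterior homeobox gene required for hair keratin expression, lies at chr15:102921103-102928814. It was the member with the highest level per kilobase of exon in WT HFSCs. It had 86 and 63 estimated counts in WT HFSCs and 35 and 90 in the labelled libraries, or 70.3 and 124.6 against 23.3 and 116.9 normalised counts. The groups overlapped, with a log2 fold change of -0.48 and an SE of 1.04 (adjusted p = 0.916, edgeR). Without library 2 labelled Msx2-KO the log2 fold change was -2.04, and without library 1 it was 0.27.

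In EpdSCs Hoxc13 was the member with the lowest level per kilobase in WT. It was listed at 7.58 and 4.74 in WT and at 15.3 and 26.3 in the labelled libraries, from 7, 5, 12 and 39 estimated counts. Both labelled libraries were above WT, with a log2 fold change of 1.59 and an SE of 0.57 (adjusted p = 0.147, limma). The value on the log2(value + 1) scale understates a change at such low levels.

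Foxq1 showed the widest range of any member in EpdSCs. It was listed at 338.3 and 855.4 in WT and at 29725 and 2792 in the labelled libraries. Both labelled libraries were above WT, and library 1 was far above library 2. The log2 fold change was 4.08 with an SE of 1.40 (adjusted p = 0.136, limma). It was 5.79 without library 2 labelled Msx2-KO, while leaving out library 1 gave 2.37.

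In HFSCs Foxq1 had 20 and 7 estimated counts in WT and 0 and 23.6 in the labelled libraries. Its log2 fold change was 0.03 with an SE of 2.30 (adjusted p = 0.998, edgeR). Without library 2 labelled Msx2-KO it turned to -7.05. Foxq1 lies at chr13:31556134-31560976 on the plus strand, and the gene A530084C06Rik covers chr13:31556134-31559333 on the minus strand. A530084C06Rik had 0 counts in both WT HFSC libraries and 415 and 44.4 in the labelled libraries, while in EpdSCs it had 20.7 and 46.2 counts in WT and 0 in both labelled libraries. Reads of these genes cannot be told apart where strand is not used in counting, and whether it was used is not given in the sources used here. Fractional values of the 2 genes added to whole counts, 23.58 and 44.42 to 68 in labelled HFSC library 2. In WT EpdSC library 1, 312.33 and 20.67 added to 333. Reads were thus split between these genes on opposite strands, and the Foxq1 values depend on that split.

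With both genes added together, the locus held 20 and 7 counts in WT HFSCs and 415 and 68 in the labelled libraries. The groups then did not overlap, and the log2 fold change was 3.58 with an SE of 0.88 (adjusted p = 0.143, edgeR). In EpdSCs the sum gave 333 and 948 counts in WT and 23343 and 4142 in the labelled libraries, with a log2 fold change of 4.0 and an SE of 1.40 (adjusted p = 0.140, limma). The locus as a whole was therefore higher in every labelled library than in WT of the same cell type, without passing the test in either. This sum was chosen after the values were seen.

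**Figure D4:**
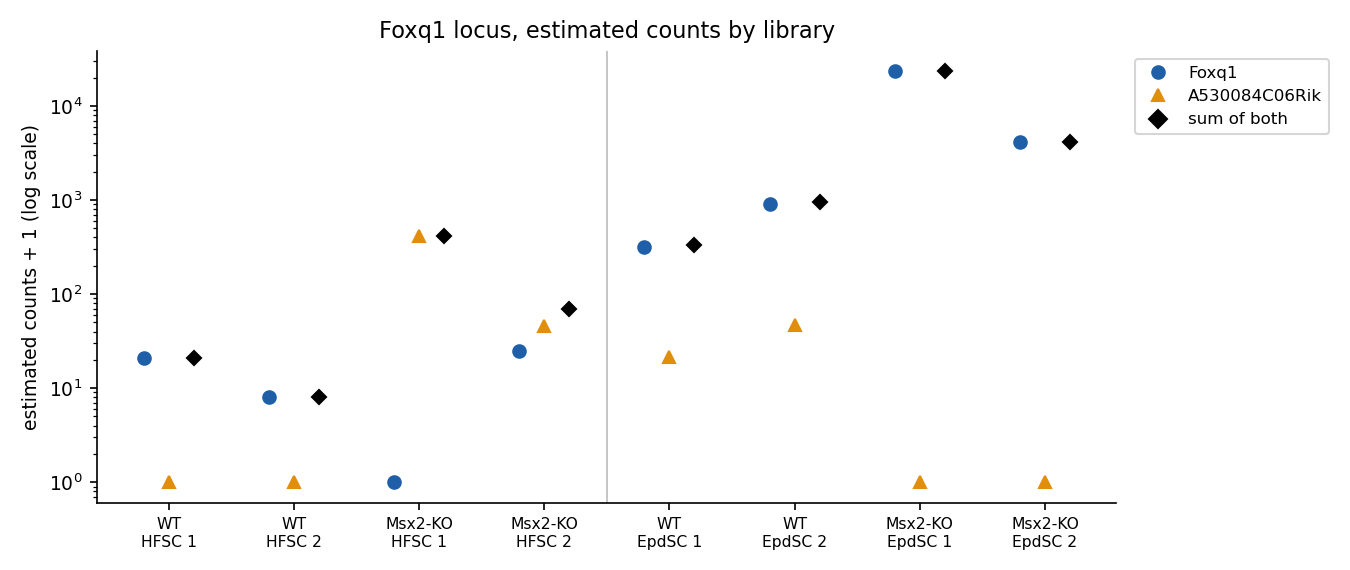
Estimated counts plus 1, on a log scale, for Foxq1 (circles), the overlapping gene A530084C06Rik (triangles) and their sum (diamonds) in each of the 8 libraries. The HFSC libraries labelled Msx2-KO hold most of their reads under A530084C06Rik, while in the EpdSC libraries Foxq1 holds most in every library.

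Satb1, at chr17:51736187-51833290, had the smallest log2 fold change of the 7 members in EpdSCs. It was listed at 1829 and 1817 in WT and at 2474 and 1748 in the labelled libraries. The WT libraries lay between the labelled ones, with a log2 fold change of 0.19 and an SE of 0.49 (adjusted p = 0.791, limma). The 95% interval of that difference ran from -1.21 to 1.59. In HFSCs Satb1 had 45.4 and 16 estimated counts in WT and 0 and 44 in the labelled libraries, and the log2 fold change was -0.27 with an SE of 2.43 (adjusted p = 0.982, edgeR). It was -8.22 without library 2 labelled Msx2-KO and 0.70 without library 1. Satb1 overlaps 5 gene models of provisional status on its own strand and 1 on the opposite strand, so its reads may be split.

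Levels were compared between members per kilobase of exon, as the mean of 2 WT libraries with the standard deviation (SD). In WT HFSCs Hoxc13 was highest, at 39.6 ± 15.6 (SD, n = 2) normalised counts per kilobase, followed by Dlx3 at 23.9 ± 12.3 and Msx2 at 11.6 ± 8.49. Dlx2 stood at 10.6 ± 7.57, Dlx5 at 7.40 ± 7.22 and Msx1 at 7.22 ± 4.24. Foxq1 at 3.12 ± 0.364, Satb1 at 2.79 ± 0.295 and Foxn1 at 0.816 ± 0.284 closed the order. The ranges of neighbours overlapped from Hoxc13 down to Msx1 and again between Foxq1 and Satb1. Foxn1 lay below all other members in both WT libraries.

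The order in WT EpdSCs was another one. Satb1 was highest, at 149.0 ± 0.714 (SD, n = 2) deposited normalised units per kilobase, then Foxq1 at 123.2 ± 75.5 and Foxn1 at 108.7 ± 47.4. Dlx5 followed at 72.5 ± 0.769, Msx2 at 29.3 ± 7.75, Dlx3 at 8.63 ± 6.32 and Hoxc13 at 2.50 ± 0.816. Ranges overlapped between Satb1 and Foxq1 and between Foxq1 and Foxn1, and not between Foxn1 and Dlx5 or between any later neighbours.

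Ranks within each library set the cell types side by side without a common scale, among 14998 genes that both tables hold and that have an exon length. Foxn1 stood at percentiles 3.91 and 5.42 in WT HFSCs and at 43.3 and 50.7 in the labelled HFSC libraries. In EpdSCs it stood at 68.2 and 51.4 in WT and at 27.9 and 31.9 in the labelled libraries. The gap between the cell types in WT was thus large, and the labelled libraries of both cell types lay between the WT groups.

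Hoxc13 ranked at percentiles 62.1 and 77.4 in WT HFSCs and at 5.19 and 3.0 in WT EpdSCs. In the labelled EpdSC libraries it stood at 33.4 and 25.8. Satb1 ranked at 11.3 and 13.1 in WT HFSCs and between 69.7 and 73.2 in the 4 EpdSC libraries. Foxq1 ranked at 98.5 and 90.7 in the labelled EpdSC libraries and at 49.4 and 75.0 in WT EpdSCs. Msx2 stayed between percentiles 22.5 and 55.9 in all 8 libraries. The WT HFSC and WT EpdSC mice differed in age, so cell type and age cannot be told apart in this contrast.

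**Figure D5:**
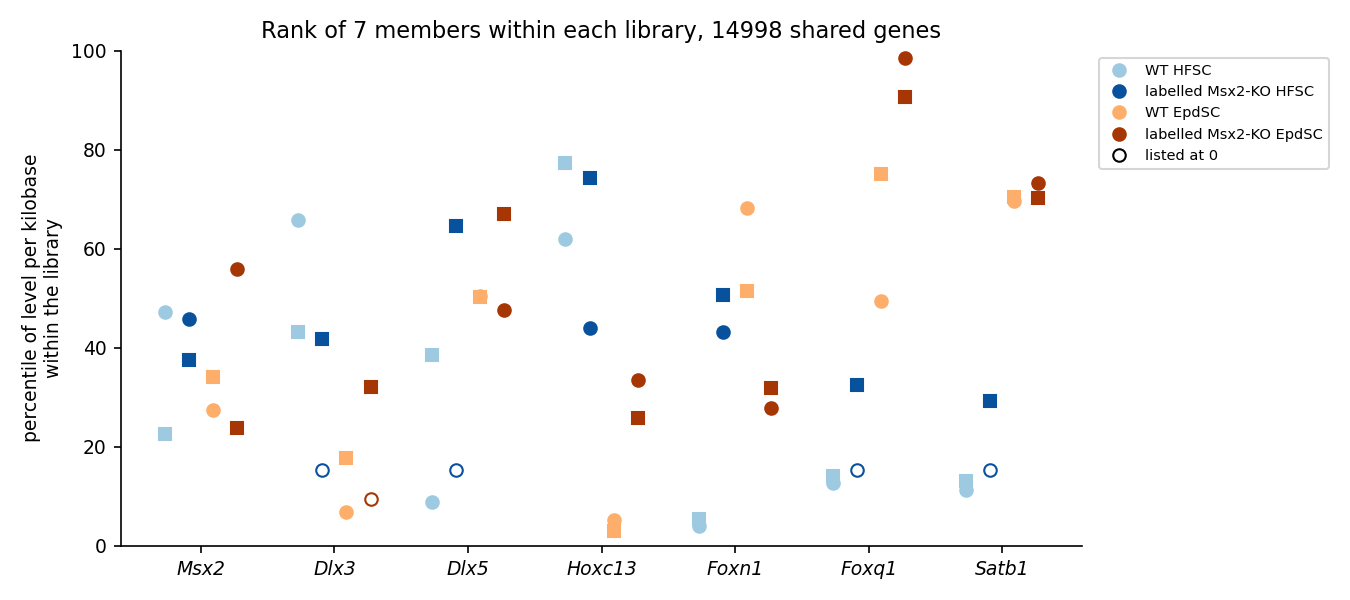
Percentile of 7 members within each library by level per kilobase of exon, among 14998 genes shared by both tables, for the 4 groups with 2 libraries each (circles library 1, squares library 2). Open points are libraries where the member is listed at 0 and shares its rank with the other genes at 0. In the WT libraries Hoxc13 ranks higher in HFSCs than in EpdSCs, while Foxn1 and Satb1 rank lower in HFSCs than in EpdSCs.

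The inputs of the members in the BMP pathway were followed as 13 genes, covering ligands, receptors, Smads, the Id target genes and the antagonist Nog. In HFSCs 3 of 12 tested genes had a positive log2 fold change and 9 a negative one, with a median of -0.69 against -0.14 for all genes, and none was called by edgeR. That median was -1.13 without library 1 labelled Msx2-KO and -1.23 without library 2, against -0.32 and -0.72 for all genes. Of the 12 tested genes 6 lay below WT in both labelled libraries, against 33.5% of all genes, and 1 above, against 17.5%. Bmp7, a ligand, was at 82.5 and 73.2 normalised counts in WT HFSCs and at 160.6 and 233.8 in the labelled libraries (adjusted p = 0.267, edgeR). Bmpr2, a receptor, overlapped between the groups at 983.5 and 1082 against 1646 and 776.7. The receptor gene Acvr1 was at 85.8 and 93.0 in WT and at 0 and 24.7 in the labelled libraries, and the target gene Id3 was at 134.8 and 187.9 against 0 and 53.3.

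In EpdSCs 8 of 12 tested BMP genes had a positive log2 fold change, with a median of 0.83 against -0.64 for all genes, and none was called by limma. With a pseudocount of 10 there were 2 called higher. The median was 0.61 without library 1 labelled Msx2-KO and 1.17 without library 2, against -0.40 and -0.84 for all genes. Of the 12 tested genes 7 lay above WT in both labelled libraries, against 27.8% of all genes, and 1 below, against 44.5%. Id1 was listed at 202.5 and 249.4 in WT and at 2353 and 1324 in the labelled libraries, with a log2 fold change of 2.97 and an SE of 0.56 (adjusted p = 0.0588, limma). Id2 was listed at 28.2 and 50.3 in WT and at 1003 and 372.7 in the labelled libraries, with a log2 fold change of 3.99 and an SE of 0.75 (adjusted p = 0.0589, limma). Both Id genes encode dimerisation partners that restrain basic helix-loop-helix factors. The ligand Bmp4 was lower in the labelled libraries, at 573.0 and 682.9 against 85.3 and 488.7 (adjusted p = 0.309, limma), and Bmpr2 overlapped.

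Other regulators of the hair lineage were followed as 19 genes. In HFSCs 7 of 15 tested genes lay above WT in both labelled libraries, against 17.5% of all genes, and 4 below, against 33.5%. A positive log2 fold change was seen in 11 of the 15, with a median of 0.34. That direction turned when counts were scaled by library totals, with 4 positive and 11 negative, a scaling that moved the median of all genes from -0.14 to -1.0. Cux1, a homeobox repressor, was at 58.0 and 45.5 normalised counts in WT HFSCs and at 132.0 and 489.7 in the labelled libraries (adjusted p = 0.199, edgeR). Prdm1 was at 24.5 and 31.6 against 122.6 and 46.8, and Trps1 and Lhx2 were the lowest by log2 fold change, at -0.68 and -0.42. None of the list was called by edgeR, while limma-trend called 1 higher.

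In EpdSCs 10 of 14 tested hair lineage regulators had a positive log2 fold change, with a median of 0.98 and none called by limma. This became 7 of 14 without library 1 labelled Msx2-KO, with a median of 0.03. Without library 2 labelled Msx2-KO it stayed at 10 of 14, with a median of 1.71. Ovol1 was listed at 444.1 and 285.5 in WT and at 2533 and 922.7 in the labelled libraries (adjusted p = 0.140, limma). Wnt10b, a Wnt ligand of the hair germ, was listed at 137.6 and 128.0 against 601.0 and 482.6 (adjusted p = 0.0806, limma). Notch1 was listed at 9339 and 8759 in WT and at 1820 and 2798 in the labelled libraries (adjusted p = 0.0898, limma), and Cux1 was at 2571 and 2771 against 588.3 and 1878.

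Among 24 hair shaft and inner root sheath genes, products of the programme these factors serve, 4 passed the filter in HFSCs and 6 had a row in EpdSCs. In HFSCs 3 of the 4 had a positive log2 fold change and none was called by edgeR. The split was 2 and 2 with library totals and 1 positive of 3 without library 2 labelled Msx2-KO, and limma-trend called 1 lower. Without library 1 labelled Msx2-KO 4 of 5 were positive. Krt75, a companion layer keratin, was at 21.2 and 63.3 normalised counts in WT and at 82.6 and 120.8 in the labelled libraries, and Tchh, the trichohyalin of the inner root sheath, was at 187.1 and 1122 against 355.3 and 1166. In EpdSCs all 6 had a negative log2 fold change and 3 were called lower, namely Tchh, Krt27 and Krt71, of which the latter pair is named because the count is small. Tchh was listed at 1100 and 616.5 in WT EpdSCs and at 22.9 and 44.5 in the labelled libraries, with a log2 fold change of -4.64 and an SE of 0.64 (adjusted p = 0.0366, limma). Krt32, a hair cuticle keratin, overlapped at 100.7 and 164.1 against 147.7 and 78.9. None of the 3 was called when either WT library was left out, where no gene of the table was, and 1 was called with a pseudocount of 10 and 2 with a pseudocount of 0.1, library totals or a replicate block.

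Keratin-associated protein genes encode the matrix of the hair shaft. Of 8 such genes in either table, 7 had a row in HFSCs and none passed the filter. All 7 were at 0 in library 1 labelled Msx2-KO, and 3 were counted in library 2, Krtap16-1 at 59.7, Krtap6-1 at 41.6 and Krtap10-4 at 23.4 normalised counts, against at most 4.90 for any of the 7 in WT. These 3 are named because the count is small. The single one in the EpdSC table, Krtap11-1, was listed at 0 in 3 libraries and at 122.2 in library 1 labelled Msx2-KO.

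Of 12 paralogs of the members, 2 were tested in HFSCs and 4 in EpdSCs, and none was called by edgeR or limma with every library kept. Foxn3 was counted deeply in every library, with a log2 fold change of -0.04 in HFSCs and 0.64 in EpdSCs. Foxn2 was at 205.0 and 221.5 normalised counts in WT HFSCs and at 0 and 59.7 in the labelled libraries, and its EpdSC groups overlapped.

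The genes whose levels over the 4 libraries of a cell type were most like those of Msx2 were sought by the Euclidean distance of mean-centred log2 levels. In HFSCs these were Exog at 0.301, Naxe at 0.352 and Aldh3a1 at 0.374, among 11695 genes. In EpdSCs they were Bcl6 at 0.0888, Akap5 at 0.162 and Bend4 at 0.190, among 13427 genes. Bcl6 was listed at 1692 and 2588 in WT EpdSCs and at 4161 and 659.2 in the labelled libraries, so like Msx2 it was highest in library 1 and lowest in library 2 of the labelled group. The points share their libraries, and a likeness over 4 libraries is a description only.

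Markers of other cell types were summed in the same libraries. T cell and other immune markers summed to 366.1 and 18.02 in WT EpdSCs and to 0 and 2.70 in the labelled libraries. In HFSCs they summed to 32.7 and 17.8 normalised counts in WT and to 0 in both labelled libraries. Satb1 is also a T cell gene, listed in EpdSCs at 1829 and 1817 in WT and at 2474 and 1748 in the labelled libraries. Of the 7 listed immune genes, 0 and 2 were at 0 in WT EpdSCs and 7 and 5 in the labelled libraries. Fibroblast markers summed to 298.2 and 391.7 in WT HFSCs and to 165.3 and 75.3 in the labelled libraries, where Msx1 and Dlx2 were also low. Melanocyte markers summed to between 92.3 and 298.6 in the HFSC libraries with no separation by group, and neither list had a row in the EpdSC table. The HFSC markers summed to 38555 and 37297 in WT HFSCs and to 20099 and 21798 in the labelled libraries, with Cd34, a gene of the sort, at 3004 and 2670 against 1084 and 879.3. The part of these shifts in the members' values was not tested.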

How the data were processed

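The members and gene lists were chosen with earlier results of these data known. Stranded total RNA libraries were aligned by the authors with STAR 2.7.3a in Partek Flow to GRCm38 and counted on GENCODE genes. The HFSC values are estimated counts, deposited by the authors with no scaling. For EpdSCs the authors deposited a normalised signal, in which a single count was worth 0.674 to 1.27 units, after a filter on low genes. The deposited comparisons of the genotypes (fold changes and p-values) were not used. The number of columns with values per library that were not mapped to a sample was 0.

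After rounding, the HFSC counts went through the TMM scaling and quasi-likelihood test of edgeR 4.0.16, with genes of low counts filtered by group. The edgeR SEs were derived as the absolute log2 fold change over the square root of the F statistic of the test. The HFSC intervals were built on these SEs. For EpdSCs limma 3.58.1 was applied to log2(value + 1). Both used all genes and Benjamini-Hochberg adjustment, and genes were called at an adjusted p under 0.05 and a fold over 2. Normalised counts refer to an HFSC library of 6119092 counts. A 2 against 2 exact permutation test cannot go below 0.333, so none was run. Exon lengths, loci and sequences came from GENCODE M21 (GRCm38). Both designs were also run on simulated counts, and no changed gene was called at the wider simulated spread. The common dispersion of the HFSC counts, 0.823, was above the simulated spreads, so power in these data was not measured. R 4.3.3 and Python 3.11.15 with matplotlib 3.10.9 were used.

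All 9 members were named. Of each list and of the Krtap genes, the 2 highest and the 2 lowest log2 fold changes among tested genes with a mean of at least 20 could be named, with the 3 genes nearest to Msx2. Some items under this rule are not reported here.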

Additional observations from a re-analysis of the deposited data

Results flagged for a closer look

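Of 39 members and named genes of the lists that were tested in both cell types, 15 had both libraries labelled Msx2-KO on one side of both WT libraries in HFSCs and on the opposite side in EpdSCs. Among all 13151 genes tested in both cell types 2176 did so, or 16.5%, and over the members and all genes of the lists 22 of 56 did. The difference between the cell types was not tested for any of them, since the tables were normalised separately, and all values are log2 fold changes, Msx2-KO minus WT. Foxn1 was the single member among them, at 3.99 in HFSCs and -3.90 in EpdSCs. The named genes were taken as the highest and lowest log2 fold changes of each list in these libraries. The lists were chosen with earlier results of these data known. The shares of 15 of 39 and 22 of 56 therefore cannot be read against the 16.5% of all genes. The Msx2-KO HFSC and WT EpdSC libraries also share a series of names, which cannot be told apart from opposite directions in the cell types.

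Krt1 (5.36 in HFSCs and -1.67 in EpdSCs), Krt10 (5.23 and -2.55) and Ivl (3.58 and -5.71) of the suprabasal list and Cst6 (5.04 and -2.66) of the basal epidermal list had the same directions as Foxn1. So did Cux1 (2.58 and -1.34) and Notch1 (0.34 and -2.0), among the hair lineage regulators. The HFSC groups of Notch1 separated only narrowly, at 781.7 and 1298 normalised counts in WT against 1305 and 1320 (adjusted p = 0.747, edgeR).

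The opposite directions were seen in the BMP genes Acvr1 (-2.87 in HFSCs and 1.82 in EpdSCs), Id1 (-2.25 and 2.97), Id2 (-1.68 and 3.99) and Id3 (-2.62 and 0.71). They were also seen in the HFSC markers Krt15 (-0.88 and 1.21), Itga6 (-0.80 and 2.39) and Lgr5 (-0.65 and 3.60), and in the hair lineage regulator Trps1 (-0.68 and 1.32). In HFSCs Acvr1, Id1 and Id3 were at 0 in library 1 labelled Msx2-KO, with SEs of 2.24, 2.10 and 2.13. Lgr5 was near the floor in WT EpdSCs, at 0 and 7.59. No group held 4 or more libraries, so no library was tested as an outlier.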

How the results depend on the processing

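Over 174 pairs of a member and an alternative, 147 kept their direction and their side of the threshold, 17 turned in direction and 11 passed the threshold, 1 of which (Foxq1 in HFSCs) also turned. All 11 had 1 library labelled Msx2-KO left out, where the lone library is assumed to vary like the WT libraries. The direction of Foxn1 held under all 12 HFSC and all 10 EpdSC alternatives, as did, wherever they passed the filter, those of Msx1, Dlx2 and Dlx3 in HFSCs and of Hoxc13 and Foxq1 in EpdSCs. The number of genes called in HFSCs, 0 in either direction, became 16 higher and 35 lower with library totals, 323 and 351 with DESeq2, 158 and 1249 with limma-trend, and stayed at 0 with RLE factors, without a filter and without mitochondrial and ribosomal RNA genes. In EpdSCs 255 genes were called higher and 1263 lower, which became 162 and 949 with a pseudocount of 0.1 and 619 and 1354 with a pseudocount of 10. Leaving out single libraries gave 90 to 2711 higher and 35 to 6561 lower in HFSCs with 0 to 7 members called, and 0 to 3745 higher and 0 to 6631 lower in EpdSCs with 0 to 3 members called. The cause was not tested. Msx2 in HFSCs turned with limma-trend (log2 fold change 0.0023) and Foxq1 in HFSCs with library totals (-0.99), no filter (-0.010) and limma-trend (-0.83). Satb1 in EpdSCs turned with library totals (-0.079), a scaling that moved the median of all EpdSC genes from -0.64 to -0.88. Log2 fold changes over libraries left out ran in HFSCs from -0.88 to 0.82 for Msx2, -2.04 to 0.27 for Hoxc13, -7.05 to 1.00 for Foxq1 and -8.22 to 0.70 for Satb1. In EpdSCs they ran from -1.62 to 1.08 for Msx2, -4.35 to 1.22 for Dlx3, -1.19 to 0.73 for Dlx5 and -0.061 to 0.44 for Satb1. Replicate numbers did not pair the libraries: deviations of same-numbered libraries correlated at -0.044 in HFSCs and -0.023 in EpdSCs. With a replicate block 145 genes were called higher and 86 lower in HFSCs and 178 and 1093 in EpdSCs, with no member called, and in HFSCs Msx2 (0.015), Dlx5 (-1.08) and Foxq1 (-2.30) turned. The edgeR test on EpdSC counts was not run, because only 73.2% to 82.7% of the nonzero values under 1000 counts came out whole within 0.02. Ranking among all genes of a table in place of the shared genes moved 11 of 28 percentiles by more than the spread between libraries.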
